A study of Mus musculus with 45 samples.

Results

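The comparison is between mouse embryonic stem cells that had been without OCT4 for 24 h and untreated cells of the same line. Chromatin accessibility was measured by ATACseq, in which the Tn5 transposase cuts and tags open DNA, and the data are fragment counts over 184964 peaks called on merged libraries. The members are 4 libraries of the 27 in the fit, chosen by their labels as the 24 h and NT (not treated) samples of the OCT4-FKBP genotype, with 2 replicates in each group. All 4 come from the V6.5 embryonic stem cell line with OCT4 fused to an FKBP degron, grown without serum on gelatin with LIF and inhibitors of MEK and GSK3-β. The 24 h group received 500 nM dTAG-13, a small molecule that sends FKBP-tagged proteins to the proteasome, and the NT group received DMSO. The line was obtained from another laboratory according to the methods, and nothing says whether the 2 replicates of a group were separate cultures, so the p-values measure the spread between these libraries, which may be technical. SOX2-FKBP cells under the same treatment, also with 2 libraries a group, serve as a comparison near the end. Their labels give E14 as the cell line, so in that comparison the factor removed and the line cannot be told apart. The fit also holds the 2 h and 6 h libraries of both lines. It further holds NANOG-FKBP cells at the same times, a line made in E14 cells according to the methods. No NANOG-FKBP result is given here.

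Total counts in peaks were 12917698 and 17575631 in the NT libraries and 7790459 and 6378962 in the 24 h libraries, so the depleted group was the shallower one. Mitochondrial peaks took 6.65% and 2.19% of counts in NT and 5.27% and 4.56% at 24 h. The level of OCT4 protein is not among these data, and a degron leaves the gene in place, so the depletion itself was not checked here. The embryonic stem cell label could be read against accessibility alone, which does not settle it. The Nanog promoter peak held 309 and 368 normalized counts in the 2 NT libraries. A peak upstream of Gata6 held 16.4 and 7.98, but it was named for its later gain. Other peaks at lineage genes were open in NT, such as the promoters of Gata6 (232 and 231) and Cdx2 (253 and 183). Chromosome 8 took between 7.41% and 7.71% of counts in every OCT4-FKBP library, treated or not, against 5.17% to 5.35% in the SOX2-FKBP libraries used here, a difference between the lines that is the same on both sides of the main comparison.

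OCT4, encoded by Pou5f1, is a POU-domain transcription factor of the inner cell mass and of embryonic stem cells. It binds the octamer motif and, together with SOX2, a composite of a SOX and a POU element, and it can open chromatin at such sites. Cells that lose OCT4 are known to leave the pluripotent state, and embryonic stem cells without it are known to take on trophoblast features; primitive endoderm, the other extraembryonic lineage of the early embryo, is marked by Gata6, Sox17 and Dab2. Accessibility at a locus says that DNA there can be reached by Tn5 and is not a measure of the gene's RNA.

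The sequences below are from named peaks that changed at 24 h and show the POU motifs of lost peaks and the motifs of a pair of strongly gained ones. Each is the 80 bases around the motif match nearest the peak's summit, read from GRCm38 (mm10), with the match in capitals; the strand is the one on which the motif reads in its usual direction. The first 4 hold the SOX-POU composite and lie in peaks that fell, the next 2 hold an octamer and lie in peaks that fell, and the last 2 lie in peaks that rose.
Nanog promoter, chr6:122707380-122707459, minus strand: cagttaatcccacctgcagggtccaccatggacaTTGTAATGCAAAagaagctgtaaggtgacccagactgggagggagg
Ttpa intron, chr4:20022354-20022433, plus strand: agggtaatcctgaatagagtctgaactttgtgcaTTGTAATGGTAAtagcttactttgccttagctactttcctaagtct
Upstream of Eomes, chr9:118406323-118406402, minus strand: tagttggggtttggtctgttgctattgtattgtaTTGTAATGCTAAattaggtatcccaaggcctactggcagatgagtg
Pax3 locus, chr1:78120026-78120105, plus strand: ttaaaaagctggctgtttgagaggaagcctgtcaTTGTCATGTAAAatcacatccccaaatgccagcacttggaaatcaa
Upstream of Dppa3, chr6:122624645-122624724, minus strand: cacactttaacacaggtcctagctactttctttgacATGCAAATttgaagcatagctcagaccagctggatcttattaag
Esrrb intron, chr12:86479004-86479083, plus strand: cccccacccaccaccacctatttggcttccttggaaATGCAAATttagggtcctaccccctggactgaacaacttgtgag
Upstream of Mylip, TFAP2 match, chr13:45274385-45274464, plus strand: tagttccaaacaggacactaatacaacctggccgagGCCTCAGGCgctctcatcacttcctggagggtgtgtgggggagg
Upstream of Tmem132c, TEAD match, chr5:127136469-127136548, plus strand: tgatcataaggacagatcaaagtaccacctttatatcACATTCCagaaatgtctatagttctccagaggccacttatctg

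After 24 h without OCT4, accessibility fell at 21078 of 166430 tested peaks (12.7%) and rose at 18027 (10.8%) by edgeR's quasi-likelihood test at a Benjamini-Hochberg adjusted p below 0.05. Losses were the deeper changes. The median log2 change was -1.68 among lost peaks and 1.03 among gained peaks, beside -0.01 over all tested peaks. Lost peaks kept a median of 31.2% of their NT level, and 15501 of them were at or under 50% of the NT mean in both 24 h libraries. Each autosome had 11.4% to 13.9% of its peaks lost, and the X chromosome 17.6% lost and 13.8% gained. Leaving out 1 library moved these counts: without replicate 1 of the 24 h group 12184 losses and 8772 gains were called, and without replicate 2 of NT there were 15137 losses and 9237 gains.

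Losses and gains fell in different places. A promoter peak is one whose summit lies within 500 bp of an annotated transcription start, and all others on the assembled chromosomes are called distal. Of 18843 promoter peaks, 669 were lost (3.55%) and 7630 gained (40.5%), and their median log2 change was 0.54. Of 147443 distal peaks, 20406 were lost (13.8%) and 10381 gained (7.04%), with a median of -0.08. Promoter gains were small, at a median log2 of 0.85, and began from an already open state, at a median of 166.9 normalized counts in NT. Distal gains were larger, with a median of 1.27, and 5158 of them started from a mean under 20 normalized counts. The promoter gain differed between the 24 h libraries: the median log2 ratio to the NT mean over promoter peaks, with a pseudocount of 1 normalized count, was 0.70 in replicate 1 and 0.33 in replicate 2. Without replicate 1 of the 24 h group 11.3% of promoter peaks were gained, without replicate 2 of NT 19.7%, and with offsets for GC content 21.2%. The part of GC content, depth and library quality in the promoter gain was not tested.

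**Figure D1:**
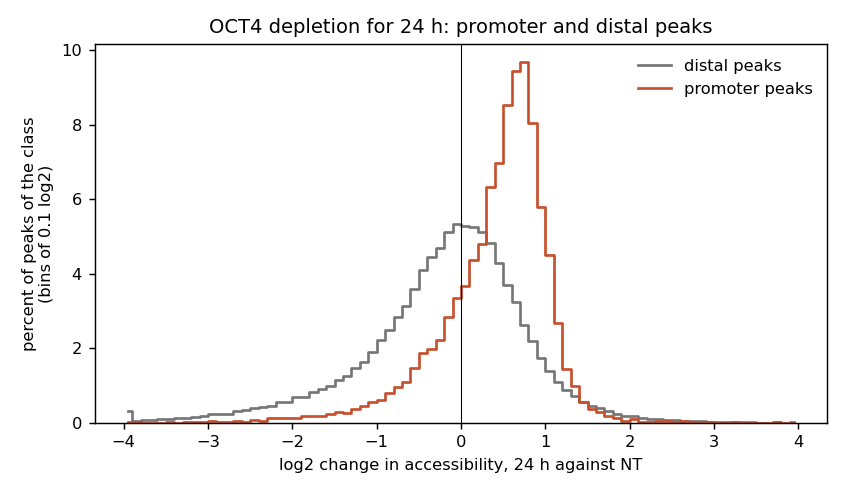
Distribution of the log2 change in accessibility between 24 h and NT for 18843 promoter peaks (red) and 147443 distal peaks (grey), as the percent of each class in bins of 0.1, with values beyond 4 placed in the end bins. The promoter curve lies to the right, around a median of 0.54, and the distal curve around -0.08 with a long tail of losses.

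Loci of the pluripotency network lost accessibility more often than peaks at large. A peak was given to the protein-coding gene with the nearest start, up to 100 kb away. At the loci of 29 core and naive pluripotency genes, 190 of 611 tested peaks were lost (31.1%) and 20 gained (3.27%), with a median log2 change of -0.52 beside -0.01 for all peaks. Every one of the 29 genes had at least 1 lost peak, 18 had lost peaks only and 11 had both kinds. Among 18870 protein-coding genes with a tested peak, 3331 had lost peaks only and 4750 both kinds, over 140546 peaks in all. A locus with more peaks has more chances of a lost one, and the pluripotency loci held more peaks per gene. Leaving out 1 library at a time left between 127 and 171 lost peaks at these loci, while the share over all peaks in the same fits fell to between 7.32% and 11.6%. In bulk samples, fewer cells with an open site and less opening per cell cannot be told apart.

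The locus of Pou5f1 itself fell in part. Of 6 tested peaks 3 were lost. The broad peak that reaches the gene's start (chr17:35503682-35506247) held 1193 and 951 normalized counts in NT and 758 and 514 at 24 h, a log2 change of -0.75 (SE 0.25, edgeR adjusted p = 0.0272). The largest fall was 9148 bp upstream of the start (chr17:35496335-35497398), from 112 and 108 to 33.3 and 37.1 (log2 -1.64, SE 0.31, adjusted p = 0.00011). In both peaks each depleted library lay below each untreated one, as at 29.9% of all tested peaks. A peak further out, 15469 bp upstream, did not pass the test, at 279 and 269 in NT and 168 and 199 at 24 h (adjusted p = 0.0508).

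Sox2, the partner of OCT4, had 5 lost peaks of 41 and a promoter that was not called. That promoter peak (chr3:34648674-34651295) held 322 and 358 normalized counts in NT and 490 and 290 at 24 h, so its groups overlapped. Distal losses included the peak 18197 bp downstream of the start, which fell from 158 and 198 to 84.1 and 52.5 (log2 -1.38), and one 94952 bp downstream, from 181 and 250 to 101 and 136 (log2 -0.87). Sox2 was thus among the least affected members of the list by share of peaks, with a median log2 change of -0.06 over its locus.

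Nanog, a homeodomain factor of naive pluripotency, fell at its promoter and nearby. The promoter peak with the composite motif shown above (chr6:122706959-122707804) went from 309 and 368 normalized counts to 138 and 154, a log2 change of -1.21 (SE 0.23, edgeR adjusted p = 0.00011). A peak 8398 bp downstream of the start fell from 283 and 158 to 85.5 and 69.5 (log2 -1.50, adjusted p = 0.00203), but without replicate 1 of NT it had an adjusted p of 0.0694. At the neighbouring Dppa3, a maternal factor and marker of the naive state, the octamer peak 1740 bp upstream fell from 262 and 279 to 39.1 and 40.2 (log2 -2.77). Gdf3, a TGF-β family ligand on the same chromosome, had both of its 2 peaks lost.

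The orphan nuclear receptor gene Esrrb carried more lost peaks than any other protein-coding locus, 30 of 60. The intronic peak with the octamer shown above (chr12:86478507-86479702) fell from 403 and 332 normalized counts to 33.3 and 32.4, a log2 change of -3.47 (SE 0.46, edgeR adjusted p = 2.47e-07). The member with the lowest adjusted p of the whole list lay in the same gene (chr12:86454676-86456589), at 305 in both NT libraries and 36.2 and 52.5 at 24 h (log2 -2.78, adjusted p = 1.21e-10). Tfcp2l1, another naive factor, had 18 of 39 peaks lost, among them one 1321 bp upstream of its start that fell from 394 and 449 to 44.9 and 61.8 (log2 -2.98). Its promoter peak went the other way, from 165 and 216 to 403 and 300 (log2 0.88, edgeR adjusted p = 0.00529), a call that was lost with GC offsets (log2 0.50, adjusted p = 0.104), without replicate 1 of NT (adjusted p = 0.0868) and without replicate 1 of the 24 h group (adjusted p = 0.129).

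Klf2 and Klf4, Krüppel-like factors of the naive state, lost distal peaks while their promoters were not called as lost. At Klf2, 7 of 13 peaks were lost, with the peak 2700 bp upstream going from 573 and 480 normalized counts to 75.4 and 98.9 (log2 -2.60) and the peak 15197 bp downstream from 897 and 611 to 125 and 165 (log2 -2.38). The Klf2 promoter held 804 and 465 in NT and 758 and 504 at 24 h, a log2 change of 0.00 with overlapping groups, and was called as lost only with the replicate block and GC offsets together (log2 -0.69). The Klf4 octamer peak 12669 bp downstream fell from 38.2 and 35.1 to 10.1 and 4.63 (log2 -2.27). The Klf4 promoter rose by the test, from 283 and 289 to 462 and 385 (log2 0.57, edgeR adjusted p = 0.0408), a call that GC offsets reversed to -0.03 and that most other settings also lost.

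Some small loci lost nearly all their peaks. At Dppa5a, a naive-state RNA-binding protein gene, 6 of 7 peaks were lost, with log2 changes down to -3.22 at the peak 3231 bp downstream of the start, which fell from 244 and 164 normalized counts to 23.2 and 20.1. At Fgf4, the growth factor gene with a known OCT4 and SOX2 enhancer in its 3′ untranslated region, 7 of 9 peaks were lost; the peak over that region, 3252 bp downstream of the start, fell from 226 and 208 to 44.9 and 71.1 (log2 -1.91, edgeR adjusted p = 9.21e-08). Tdgf1, the Nodal co-receptor, lost 3 of 4 and Lefty1, a Nodal inhibitor, 3 of 4, with the Lefty1 peak 10141 bp upstream falling from 368 and 286 to 33.3 and 23.2 (log2 -3.52). Prdm14, which represses differentiation signals in naive cells, kept its promoter at 171 and 160 in NT against 181 and 158 at 24 h, while a peak 67094 bp downstream fell from 129 and 238 to 11.6 and 21.6 (log2 -3.48).

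**Figure D2:**
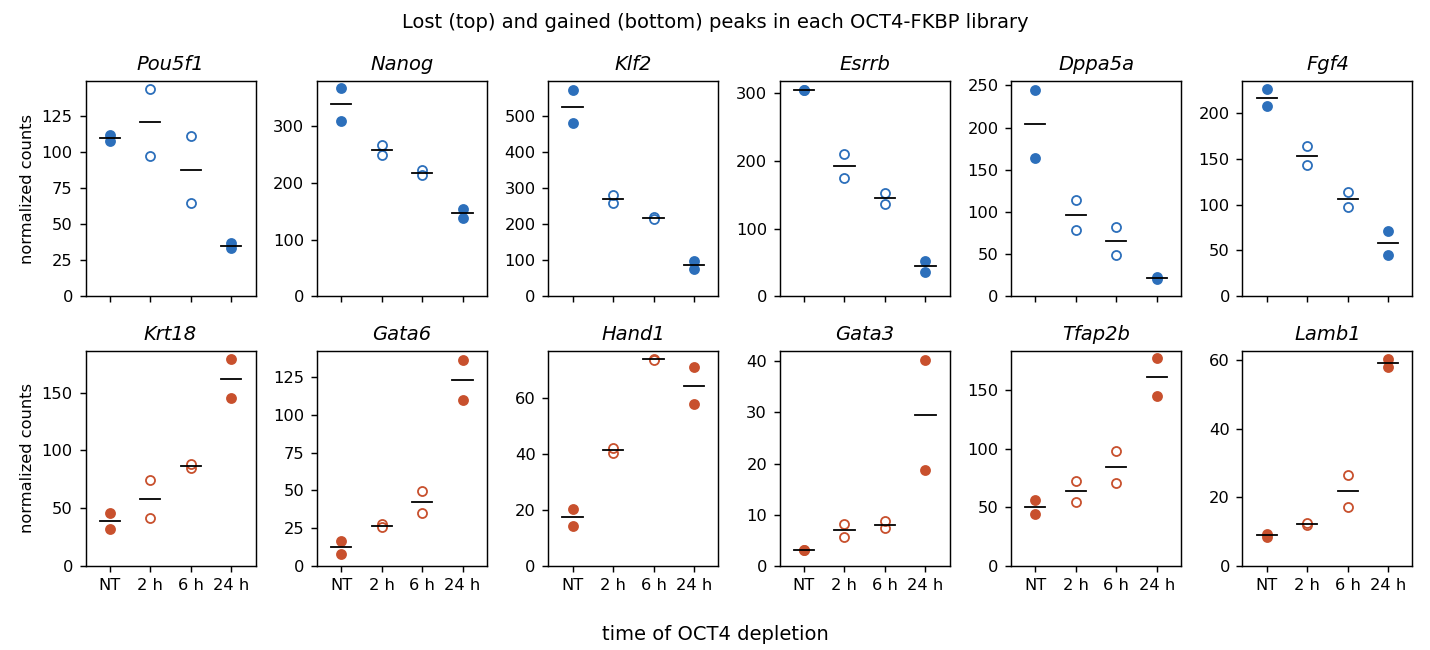
Normalized counts in each OCT4-FKBP library at the called peak with the lowest adjusted p of 12 genes, lost in the top row and gained in the bottom row; filled points are the NT and 24 h libraries, open points the 2 h and 6 h libraries, and lines the mean of 2. At every peak drawn both 24 h libraries lie on one side of both NT libraries, for example 36.2 and 52.5 against 305 and 305 at Esrrb and 110 and 136 against 16.4 and 7.98 at Gata6. The same holds for 56.9% of all tested peaks, 99.35% of lost and 98.9% of gained peaks, so it follows from the choice of called peaks.

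Promoters of the same 29 genes behaved less uniformly than their distal peaks. Here a promoter peak is one within 500 bp of a protein-coding start, a smaller set than that near any start. Of 25 such peaks at these loci 6 were lost, at Dppa3, Fgf4, Lefty1, Nanog, Tcl1 and Tdh. Gains numbered 5, at Jarid2, Klf4, Klf5, Nr5a2 and Tfcp2l1. Of 14514 such peaks at all protein-coding genes 298 were lost and 7158 gained. The median over the 25 was 0.04, beside 0.62 over the 14514. The largest promoter loss was at Tcl1, an AKT co-activator gene, with a mean of 148 ± 34.2 normalized counts in NT and 33.8 ± 6.81 at 24 h (SD, n = 2; log2 -2.14). The promoters of Pou5f1, Otx2, Gata3 and Eomes had no tested peak with a summit within 500 bp. The gained promoters had log2 changes of 0.57 to 0.91.

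The largest losses over the genome left almost no reads. These are the peaks with the largest called fall, an NT mean no lower than 50 normalized counts and no overlap between groups. Few reads at 24 h therefore follow from the choice. The peak upstream of Nectin3, a cell adhesion receptor gene (chr16:46500829-46501313), held 145 and 243 raw counts in NT and 2 and 0 at 24 h, 82.0-fold higher in NT with an interval of 22.5 to 680 (exact conditional, 95%, counting error only). The Ttpa intron peak with the composite motif, in the gene of the vitamin E transfer protein, held 120 and 222 against 1 and 3 raw counts, a ratio of 36.1 (14 to 133). Others among the largest losses lay nearest to 2700062C07Rik, Hmgb3, Bend5, Pcdh7, Wrn, Rbmxl2 and Gm11011, with 1 to 3 raw counts left over both 24 h libraries. Of the 21078 lost peaks 691 were at or under 10% of the NT mean in both depleted libraries. The Bend5 and Gm11011 peaks had an octamer near the summit.

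Loci of the lineage genes showed losses and gains in about the proportion of all peaks. At 71 genes of the trophectoderm, primitive endoderm, mesoderm and neuroectoderm lists 90 of 848 tested peaks were gained (10.6%, beside 10.8% of all tested peaks) and 110 were lost (13.0%, beside 12.7%). The median log2 change was 0.07. The count of gains fell to 50 without replicate 2 of NT and to 51 without replicate 1 of the 24 h group.

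**Figure D3:**
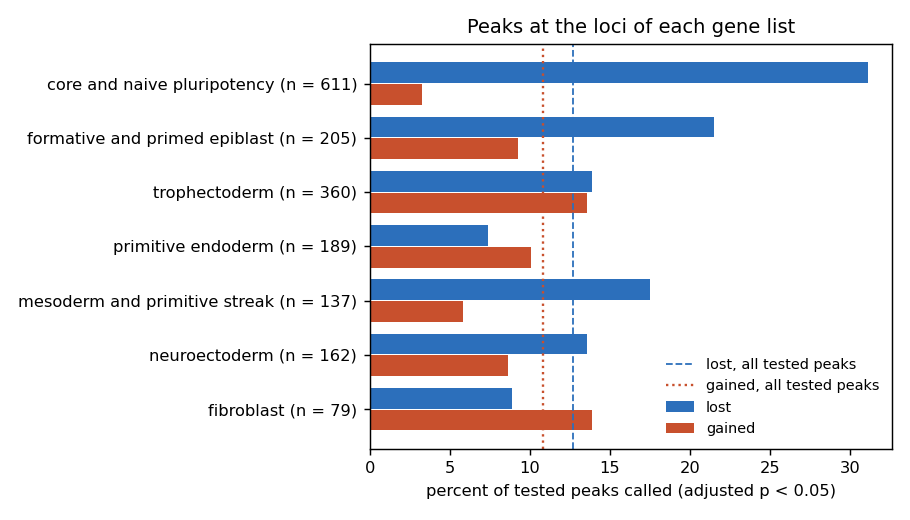
Percent of tested peaks lost (blue) and gained (red) at the loci of each gene list, with dashed and dotted lines at the share over all tested peaks, 12.7% lost and 10.8% gained. The pluripotency bar for losses reaches 31.1%, while the gained bars of the lineage lists lie between 5.84% and 13.6%.

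Of the 24 trophectoderm genes 7 had gained peaks only, 4 had lost peaks only, 11 had both and 2 had neither. Among 18870 protein-coding genes with a tested peak, these numbers were 5475, 3331, 4750 and 5314. In all 49 of 360 trophectoderm peaks were gained (13.6%, beside 10.8% of all tested peaks) and 50 lost (13.9%, beside 12.7%). Krt18 and Krt8, the simple-epithelial keratins, are neighbours, with 4 of 9 and 3 of 6 peaks gained and none lost. The Krt18 peak 2427 bp upstream of the start (chr15:102025148-102026069) rose from 32.0 and 45.7 normalized counts to 145 and 179, a log2 change of 2.04 (SE 0.28, edgeR adjusted p = 5.26e-07). The peak 9346 bp upstream of Krt8 rose from 66.3 and 96.8 to 259 and 256 (log2 1.65). Krt7, a further keratin of trophectoderm, rose at its promoter from a mean of 38.6 ± 4.94 to 111 ± 11.3 (SD, n = 2; log2 1.53).

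Hand1 and Tfap2b, transcription factors used in trophoblast, each had 6 gained peaks and no lost ones, of 27 and 10. The Hand1 peak 79222 bp upstream rose from 20.3 and 14.4 normalized counts to 58.0 and 71.1 (log2 1.92), and the intronic Tfap2b peak 21947 bp downstream of the start rose from 56.1 and 44.1 to 177 and 145 (log2 1.69). Gata3, a regulator of trophectoderm, gained 4 of 14 peaks and lost 1, the largest gain 59957 bp from its start, which rose from 3.12 and 3.19 to 18.8 and 40.2 (log2 3.16, edgeR adjusted p = 3.03e-05). Plet1, a trophoblast surface protein gene, had 4 gained and no lost peaks of 20, and the tight-junction gene Cldn4 had 4 gained and 2 lost of 10.

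Other trophectoderm regulators lost accessibility. Tfap2c, which is also active in naive cells and germ cells, had 15 of 35 peaks lost, and the strongest (chr2:172576908-172578078) fell from 496 and 411 normalized counts to 20.3 and 29.3, a log2 change of -4.19 (SE 0.38, edgeR adjusted p = 1.29e-10). The composite-motif peak 71918 bp upstream of Eomes, a T-box factor of trophoblast and mesendoderm, fell from 510 and 411 to 55.1 and 58.7 (log2 -3.01). Cdx2, the caudal-type factor that opposes OCT4 in trophectoderm, had a single called peak of 5, in an intron, which fell from 414 and 341 to 151 and 110 (log2 -1.53), while its promoter was not called at 253 and 183 in NT and 294 and 176 at 24 h. Tead4 had 6 lost and 2 gained peaks of 29.

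Primitive endoderm loci had few losses. Of 189 peaks 14 were lost (7.41%, beside 12.7% of all tested peaks) and 19 gained (10.1%, beside 10.8%). The peak 74720 bp upstream of Gata6, the zinc-finger factor that starts this lineage (chr18:10976562-10978213), rose from 16.4 and 7.98 normalized counts to 110 and 136, a log2 change of 3.39 (SE 0.33, edgeR adjusted p = 5.21e-10). The Gata6 promoter passed the test at 232 and 231 against 425 and 321 (log2 0.69, adjusted p = 0.0312) but lost that call under each single-library omission except that of replicate 2 of the 24 h group. Dab2, an endocytic adaptor of endoderm, gained 4 of 10 peaks, its promoter among them, and an intronic peak of Lamb1, a laminin chain, rose from 9.35 and 8.51 to 58.0 and 60.2 (log2 2.72). Sparc, a matrix protein gene, had 1 gained and 2 lost peaks of 18, and the gained one, 5222 bp upstream, rose from 42.1 and 54.8 to 155 and 199 (log2 1.85). In the other direction, the Sox7 peak 6987 bp upstream fell from 94.3 and 96.8 to 11.6 and 3.09 (log2 -3.66).

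Mesoderm loci had more losses and fewer gains than peaks at large, and neuroectoderm loci lay near the 12.7% lost and 10.8% gained of all peaks. At 15 mesoderm and primitive streak genes 24 of 137 peaks were lost (17.5%) and 8 gained (5.84%). Gsc, the organizer homeobox gene, alone held 7 of those losses, on 23 tested peaks. A peak 20132 bp downstream of Gsc fell from 288 and 291 normalized counts to 60.9 and 60.2 (log2 -2.25). T, or Brachyury, fell 4704 bp upstream from 77.2 and 83.0 to 27.5 and 20.1 (log2 -1.74) and its promoter was not called. At 16 neuroectoderm genes 22 of 162 peaks were lost (13.6%) and 14 gained (8.64%), and without replicate 2 of the 24 h group there were 16 of each. The intronic Pax6 peak 1648 bp into this eye and brain regulator fell from 166 and 141 to 10.1 and 15.4 (log2 -3.58, edgeR adjusted p = 8.31e-10), whereas the peak 12437 bp upstream of Lhx2 rose from 8.57 and 13.3 to 116 and 190 (log2 3.75, adjusted p = 1.71e-08). A called loss needs counts in NT, so the open state of the lost Gsc and Pax6 peaks in untreated cells follows from the choice.

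Formative and primed epiblast genes, which are switched on when naive cells move towards implantation stages, also lost sites. Of 205 peaks at 15 genes 44 were lost (21.5%, beside 12.7% of all tested peaks) and 19 gained (9.27%, beside 10.8%). Foxd3 had 10 of 23 peaks lost, the strongest falling from 81.8 and 116 normalized counts to 10.1 and 10.8 (log2 -3.24). Grhl2, a Grainyhead factor of epithelium, had 8 gained and 5 lost of 36, with a peak 73533 bp upstream rising from 16.4 and 13.3 to 68.1 and 55.6 (log2 2.07). The intronic Fgf5 peak fell from 221 and 206 to 82.6 and 47.9 (log2 -1.70), and its promoter, at 70.1 and 70.2 in NT and 122 and 80.3 at 24 h, was not called (log2 0.53, edgeR adjusted p = 0.122). It was called as gained with the replicate block (log2 0.52, adjusted p = 0.0472), with loess offsets on abundance (log2 0.66, adjusted p = 0.0494) and without replicate 2 of the 24 h group (log2 0.79, adjusted p = 0.0411). Fibroblast genes, a list outside the early embryo, had 11 of 79 peaks gained (13.9%, beside 10.8% of all tested peaks) and 7 lost (8.86%, beside 12.7%).

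The largest gains over the genome came from sites that were close to empty in untreated cells, which follows from ranking by log2 change. The peak 105228 bp upstream of Tmem132c (chr5:127135824-127137122), with TEAD, GATA and TCF/LEF matches near its summit, rose from 14 and 11.2 normalized counts to 448 and 355, a log2 change of 5.00 (SE 0.34, edgeR adjusted p = 1.03e-12). The intronic Kank1 peak held 2 raw counts in each NT library and 37 and 54 at 24 h, and the peak upstream of Mylip 3 and 1 against 32 and 50. A peak 112725 bp upstream of Msx2, a homeobox gene of the trophectoderm list that lay outside the distance limit for a locus, rose from 4.68 and 2.66 to 97.1 and 119 (log2 4.90, adjusted p = 1.4e-11). Of the 14 tested peaks at the Msx2 locus itself, 0 were lost and 0 gained. The remaining 6 of the largest gains were nearest to Fbxo21, Bmf, Fth1, Rpl37a, Galr1 and Sorcs2, with log2 changes of 4.26 to 4.66.

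Counted by locus without regard to any list, losses gathered around Esrrb, Etl4 (24 of 94 peaks), Ctbp2 (22 of 57), Tfcp2l1, Zfp704 (18 of 57), Alg13 (17 of 30), Dpp6 (17 of 40) and Etv5 (17 of 43). Ctbp2 encodes a corepressor, and Etv5 an ETS factor of naive cells. Gains gathered around Mbnl2, a splicing regulator gene, with 15 of 31 peaks and none lost, Lhfpl2 (14 of 40), Tcf4 (14 of 58), Cstad (12 of 36), Irf2bp2 (12 of 30), Irs2 (11 of 18), Palld (11 of 40) and Ablim1 (10 of 46). Loci with many peaks have more to be counted, and these were chosen for their counts.

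Motif content set lost and gained distal peaks apart. Matches were sought on both strands in the 200 bp around the summit. The SOX-POU composite, a SOX core and a POU core a base apart, was in 2.84% of lost, 0.135% of gained and 0.619% of all distal peaks. Of the 912 distal peaks with the composite 63.5% were lost and 1.54% gained, and their median log2 change was -1.62. The octamer ATGCNAAT, which can overlap the composite, was in 11.2% of lost, 1.4% of gained and 3.98% of all. The SOX motif CNTTGT, short and common, was in 48.5%, 39.6% and 38.8%.

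Gained distal peaks had other letters more often. The TFAP2 palindrome GCCNNNGGC was in 14.2% of gained, 5.7% of lost and 7.74% of all distal peaks, and the TEAD motif ACATTCC in 7.57%, 5.14% and 4.67%. The KLF motif GGGNGGGGC was in 7.71% of gained and 5.47% of all. The GATA factor motif AGATAA stood at 7.95% of gained and 7.74% of lost against 6.73% of all, and the CDX motif TTTATNG at 5.53% and 5.71% against 5.57%. The CTCF core AGGGGGCGC was in 0.338% of lost, 0.607% of gained and 0.931% of all. Median GC content was 48.0% in lost and 53.3% in gained peaks of every class beside 50% over all, and its part in the shares of GC-rich motifs was not tested; among distal peaks alone the gained median was 49.9%. A match describes letters in a window and is not a bound site.

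**Figure D4:**
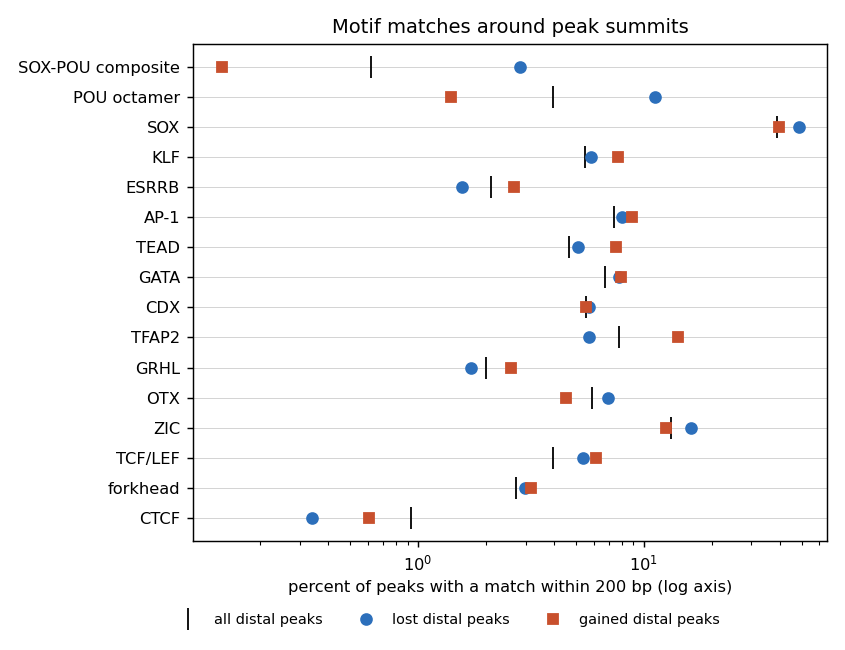
Percent of distal peaks with a motif match within the 200 bp around the summit, on a log axis, for 20406 lost (blue circles), 10381 gained (red squares) and all distal peaks (black ticks). The composite and octamer rows show lost peaks far to the right of gained ones, and the TFAP2 row shows gained peaks at 14.2% against 5.7% of lost ones.

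Depletion of SOX2 for 24 h, measured against its own untreated libraries, gave fewer calls than that of OCT4 in the main fit. The OCT4 counts fell when 1 library was left out, as given above, so the order of the counts is not settled. SOX2 depletion had 18076 losses (10.9% of all tested peaks) and 8100 gains (4.87%) by the same fit. Losses called in both lines numbered 11119, which is 52.8% of the OCT4 and 61.5% of the SOX2 losses. Gains in both numbered 3078, which is 17.1% and 38%. A gain not called after SOX2 depletion is not shown to be absent there. The median SOX2 log2 change was -1.07 at the OCT4 losses and 0.44 at the OCT4 gains. The difference between the depletions was tested as an interaction in the same model: 1834 peaks (1.1%) had a more negative change after OCT4 depletion and 2774 (1.67%) a more positive one. Of the OCT4 losses 8.58% and of the OCT4 gains 7.6% passed this test. With a block for the replicate number, the total of 4608 rose to 11715, and without replicate 2 of the OCT4 24 h group it was 2629. At the pluripotency loci 26 of 611 peaks (4.26%) changed more negatively without OCT4, and 6 (0.982%) more positively. At the lineage loci 11 of 848 (1.3%) were more negative and 15 (1.77%) more positive, about the share of all peaks.

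Named peaks differed between the depletions in both directions. The Esrrb octamer peak had a log2 change of -3.47 without OCT4 and -0.89 without SOX2, a difference of -2.59 (edgeR adjusted p = 0.00913), and the Dppa3 octamer peak one of -2.77 against -0.39 (difference -2.38, adjusted p = 0.000186). The Eomes composite peak fell less without OCT4, by 3.01 on the log2 scale against 4.52 without SOX2 (difference 1.50, adjusted p = 0.0464). The Gata6 upstream peak rose with OCT4 loss (log2 3.39) and stood at 0.35 with SOX2 loss, where it was not called (difference 3.03, adjusted p = 2.84e-05). That peak held a mean of 64.1 ± 10.1 normalized counts in NT and 82.9 ± 9.05 at 24 h in SOX2-FKBP cells, and 12.2 ± 5.93 in NT of OCT4-FKBP (SD, n = 2), so the lines started from different levels. The Krt18 upstream peak rose in both, with log2 changes of 2.04 and 2.10 (difference -0.06, adjusted p = 0.972). The Klf2 upstream peak fell in both, with -2.60 and -2.96 (difference 0.37, adjusted p = 0.79); for both peaks a p above the threshold does not show that the depletions act alike.

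**Figure D5:**
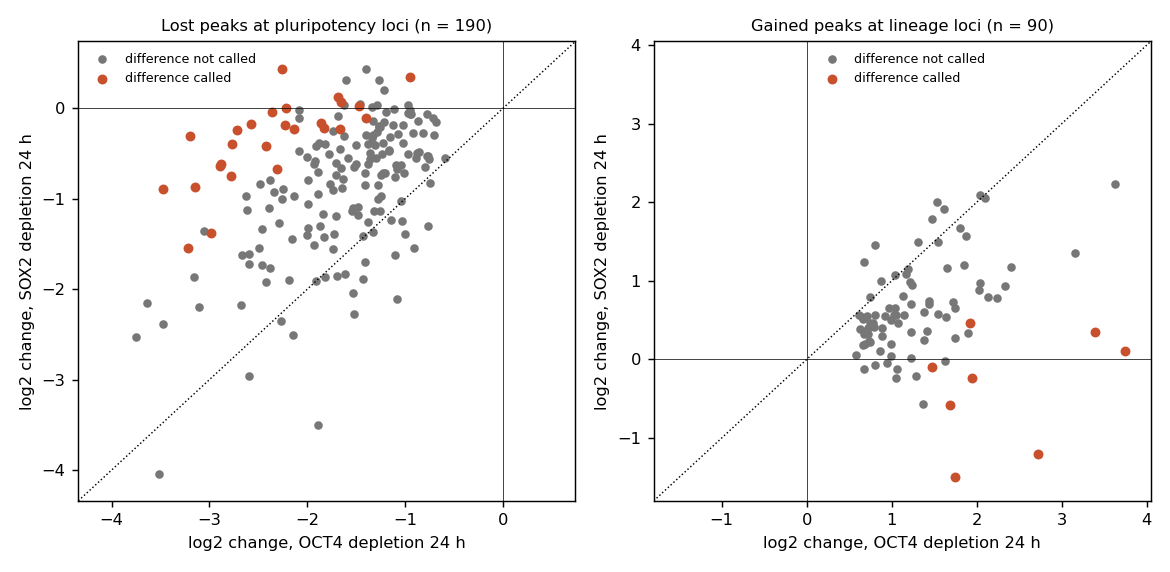
The log2 change after 24 h of OCT4 depletion (horizontal) and of SOX2 depletion (vertical) at the 190 lost peaks of pluripotency loci and the 90 gained peaks of lineage loci; the dotted line marks equal change, and red points are those whose difference passed the interaction test. All peaks were chosen by their OCT4 change, and red points are 26 of 190 on the left and 8 of 90 on the right, with the OCT4 change the larger one in each.

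The 2 h and 6 h libraries of the same line share the NT libraries with the 24 h comparison, so their values are given side by side and not tested against it. At pluripotency loci losses numbered 64 after 2 h, 91 after 6 h and 190 after 24 h, and at trophectoderm loci gains numbered 13, 23 and 49. Over all tested peaks losses numbered 8480, 13260 and 21078 and gains 3194, 6859 and 18027 at the same times. Some losses were nearly complete early: the Dppa3 octamer peak, at 262 and 279 in NT, had successive means of 54.9, 46.8 and 39.7. The Esrrb octamer peak fell later, with means of 227, 183 and 32.9. Pou5f1's peak 9148 bp upstream, at 112 and 108 in NT, had means of 121, 87.7 and 35.2. Among gains, the Gata6 upstream peak had means of 26.5, 42.4 and 123, and the Tmem132c peak 33.4, 118 and 402. The Hand1 peak 79222 bp upstream was as open at 6 h, at 74.1 and 73.9, as at 24 h, at 58.0 and 71.1.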

How the data were processed

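The deposited table holds raw ATACseq fragment counts, without normalization, in peaks that the authors called with MACS2 on merged libraries after alignment of paired-end reads to mm10. The submitters' processing notes name BWA 0.7.17-r1188, SAMtools 1.10 and Picard 2.12.0. Counts are of whole fragments that overlap a peak, so they carry no shift to the Tn5 cut site. The deposited peak list also gives, for the merged libraries, the authors' fold enrichment over local background (a ratio), −log10 p- and q-values and a display score, which were not used to compare samples; its peak and summit positions were used.

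A peak was tested (166430 in all) where over 6 of the 27 libraries had over 10 counts. Tests used edgeR 4.0.16 under R 4.3.3 (quasi-likelihood test with TMM, 1 mean per line and time, no block as in the study's methods, Benjamini-Hochberg threshold 0.05). DESeq2 1.42.0 was an alternative. The test was also run on simulated counts with 200 of 166430 peaks changed, where 123 were recovered and 3 calls were false. Those counts had far fewer changes and no link between libraries of a replicate number, so they do not measure the error rates in these data. A normalized count is a count scaled to the mean effective library size of 9492670. Values given as 2 numbers are the 2 replicates. Standard errors are of the log2 change. Starts are from GENCODE vM21 on GRCm38, and 0 peaks end past a reference chromosome. Libraries of OCT4-FKBP with the same replicate number deviate together (correlations of 0.142 to 0.352 over the pairs of conditions). What the numbers pair is not stated and was not tested. The main fit leaves the replicate number out, and the block for it is given as an alternative. Replicates correlated at 0.949 (NT) and 0.915 (24 h) on the log2 scale over peaks.

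Named peaks are the 10 largest called losses and gains whose higher group has a mean no lower than 50 normalized counts and no overlap of libraries (1 per nearest gene), the lowest adjusted p at up to 6 genes of each list, the promoter and most changed peak of 18 developmental genes, and the 8 loci with the most lost or gained peaks. Other peaks at listed genes (Pou5f1, Sox2, Klf2, Dppa5a, Krt8, Hand1, Tfap2b and promoters) were chosen after their values were seen. A named peak is not reported here. The gene lists and members were chosen with earlier results of these data known. Alternatives were other normalizations, filters, sets of libraries, GC offsets, the replicate block, the omission of each library and other definitions of a locus. Samples outside the 27 libraries of the fit were not analysed here. The NANOG-FKBP libraries among the 27 entered the peak filter and the shared estimate of spread. Of these, replicate 2 at 2 h, 6 h and 24 h had 17.56%, 13.18% and 16.99% of counts in mitochondrial peaks. With the OCT4-FKBP libraries alone, 17671 losses and 13610 gains were called.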

Additional observations from a re-analysis of the deposited data

Results flagged for a closer look

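The depletion of OCT4 and that of SOX2 differed by the interaction test, with edgeR's quasi-likelihood test and adjustment over all peaks, at 4608 peaks, and 27 of the 89 named peaks were among them. Values are the OCT4 minus the SOX2 log2 change at 24 h. The cell lines differ by their labels (V6.5 and E14), so the factor and the line cannot be told apart. The change was more negative after OCT4 depletion at 12 named peaks: Hmgb3 (-4.05), Bend5 (-4.08), Gm11011 (-3.10), the Esrrb peaks 14840 bp upstream (-2.03) and 8921 bp downstream of a start (-2.59), Tfcp2l1 (-1.60), Dppa3 (-2.38), Tfap2c (-2.55), Ets2 (-1.68), Sox7 (-2.62), Mesp1 (-1.51) and Pax6 (-1.76). It was more positive at 15: Kank1 (4.58), Mylip (3.00), Tmem132c (4.56), Fbxo21 (3.19), Fth1 (6.5), Rpl37a (4.02), Galr1 (2.73), Sorcs2 (2.77), Grhl2 (1.99), Gata6 (3.03), Sox17 (1.56), Lamb1 (3.93), Lhx2 (3.64), Thy1 (1.78) and Eomes (1.50). The peaks were named for their OCT4 change, so a larger OCT4 change is favoured by that choice. With 2 libraries in each group, single libraries were not tested for standing apart.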

How the results depend on the processing

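The pluripotency loci kept a share of lost peaks above that of all peaks in every setting tried, from 20.8% beside 7.32% (without replicate 1 of the 24 h group) to 70.8% beside 27.5% (at least 10 counts in every library), and their lost peaks numbered 127 to 171 with 1 library left out, 105 within 20 kb of a start and 119 with the nearest start of any gene. The counts of gained peaks were less stable. Leaving out 1 library gave 12184 to 19326 losses, 8772 to 16164 gains, 50 to 81 gains at lineage loci and 2629 to 3869 peaks that differ between OCT4 and SOX2 depletion. With at least 10 counts in every library these 4 counts were 9167, 6872, 19 and 1664, since fewer peaks were tested. With the NT and 24 h libraries alone 11335 gains were called, 58 of them at lineage loci. Total-count scaling gave 58 gains at lineage loci, a median log2 change over all peaks of -0.14 in place of -0.01, and 65.6% of calls as losses, against 53.9% with TMM, 48.0% with RLE size factors and 47.6% with DESeq2 (15634 losses and 17242 gains). Within 20 kb of a start 52 of 432 peaks at lineage loci were gained, and with the nearest start of any gene 52 of 449. Both shares lay above the 10.8% of all tested peaks, so these lower counts came with fewer peaks at the loci. The same definitions gave 43.9% and 38.6% of peaks lost at the pluripotency loci, beside 12.7% of all tested peaks. The replicate block gave 26382 losses and 25135 gains, and 11715 peaks that differ between the depletions (11797 with GC offsets). GC offsets without the block, an alternative chosen after seeing the data, gave 20945 losses and 14948 gains and turned the Klf4 promoter to -0.03, as did GC offsets with the block (-0.03). Calls lost under an alternative among the named peaks were mostly promoter gains (Gata6, Klf4, Pax6, Tfcp2l1) and the Sox2 peak 13259 bp upstream, and the cause was not tested. The 24 h libraries, at 7790459 and 6378962 counts, limit the precision of peaks near empty.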
